A study of Mus musculus with 12 samples.

Results

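Cells of mouse colon adenomas that carried both Mex3a and Lgr5 were compared with cells from the same mice that carried neither. The comparison used 6 of the 12 arrays of the study: the 3 arrays labelled Mex3a+ Lgr5+ (double-positive) and the 3 labelled Mex3a- Lgr5- (double-negative), paired by the mouse number in the sample titles (MKL358, MKL347 and MKL367). The other 6 arrays were of the populations that carried only 1 of the markers, and they entered the fit and 1 comparison below. All 4 populations of a mouse were sorted from a pool of several adenomas of that mouse, with 500 cells per population for MKL358 and 2000 for MKL347 and MKL367. The labels give every mouse, in every group, the genotype ki/+ without naming the allele, and they name neither the model that formed the adenomas, nor the reporter or antibody behind each gate, nor an age or a treatment. No normal colon cells were analysed here, so the double-negative adenoma cells are the only reference. RNA abundance was measured on an Affymetrix mouse array after whole transcriptome amplification of 25 ng of total RNA. Values are log2 signals made by robust multi-array averaging (RMA), and a difference of 1 is a 2-fold change.

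Lgr5 is a receptor for R-spondins, secreted proteins that amplify Wnt signalling, and it marks the stem cells that lie at the bottom of the crypts of the intestine. Mex3a is an RNA-binding protein, and in the normal mouse intestine it marks Lgr5-positive cells that divide slowly. In the colon, cells leaving the crypt base lose Wnt activity and become absorptive colonocytes, which take up salt and water, or goblet cells, which secrete mucus. Adenomas usually arise when the Wnt pathway is switched on in the epithelium.

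Genes of mature colon epithelium were lower in double-positive cells by up to 43.0-fold, and Wnt pathway genes, lipase-related genes and vimentin were higher by up to 8.52-fold. Of 12595 genes tested, 1756 rose (13.9%) and 2405 fell (19.1%) at a limma adjusted p under 0.05, 33% in all. The share of falls among the calls depended on scaling: it was 57.8% here, 51.5% after a further quantile normalization and 65% after median centring. Of the genes called, 246 rose at least 2-fold (1.95% of those tested) and 390 fell at least 2-fold (3.1%). In 20 of these rises and 41 of these falls the mean of the lower population was below the test level, a log2 signal of 4.40 that a gene had to exceed on 3 arrays to be tested, so such genes passed the filter through the other population or the single-positive ones. The median difference over all 12595 genes was -0.01. The 3 double-positive arrays did not overlap with the 3 double-negative arrays in 4100 genes (32.6%), and 4105 of the 4161 called genes had the same sign in all 3 mice. The pairing of arrays by mouse mattered for the count: without the mouse as a block 2399 genes were called, and all of these were also called with it. Without mouse MKL347 the count was 2483. Nothing in the labels says that arrays were run in batches. With the mouse as a block, the p-values rest on how differences between populations vary among 3 mice, estimated over all 12 arrays.

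**Figure D1:**
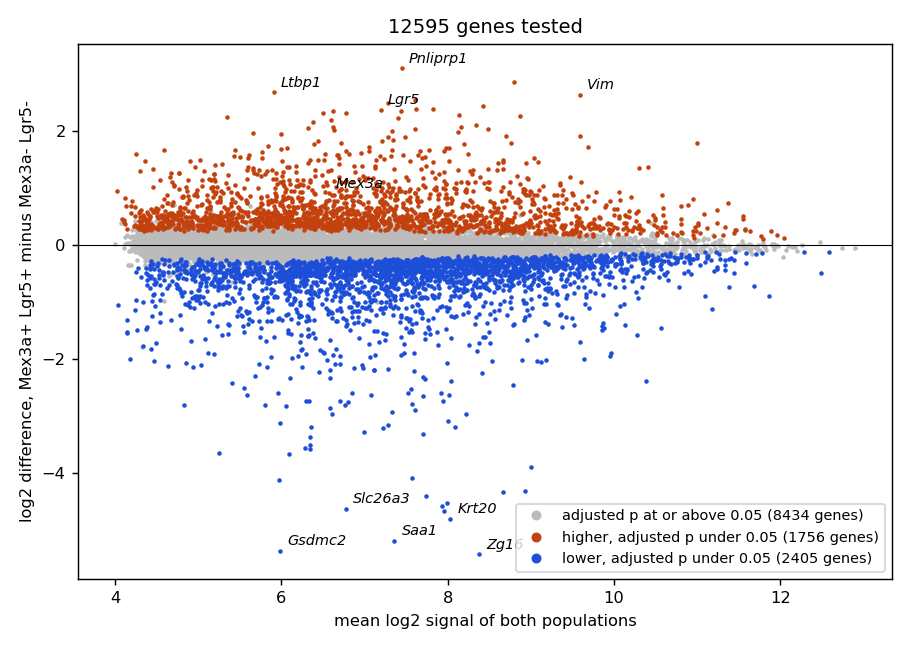
The log2 difference (double-positive minus double-negative, vertical axis) of each of the 12595 genes is plotted against its mean log2 signal over both populations (horizontal axis), with 1756 higher genes in orange, 2405 lower genes in blue and the rest in grey. The falls reach -5.43 (Zg16), and the rises reach 3.09 (Pnliprp1).

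The sorted markers came first. In the order MKL358, MKL347 and MKL367, which is kept below, the log2 signal of Lgr5 was 8.10, 8.53 and 8.50 in double-positive cells, against 5.76, 5.78 and 6.49 in double-negative cells. The groups lay far apart, and Lgr5 was 5.14-fold higher (log2 difference 2.36, SE 0.15, limma adjusted p = 4.97e-07). Mex3a read 6.86, 6.89 and 7.31 in double-positive cells and 5.94, 5.93 and 6.49 in double-negative cells. Its groups did not overlap either, and the difference was 1.87-fold (log2 0.90, SE 0.14, limma adjusted p = 0.000268). A dimmer probe set of Mex3a differed by 0.31. Both transcripts thus went with the gates, Lgr5 by more than Mex3a.

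The array medians lay between 4.86 and 4.92. Arrays of double-positive and double-negative cells correlated with each other at 0.922 to 0.966 across probe sets, and arrays within a population at 0.975 to 0.988. Epcam, the adhesion molecule that defines epithelial cells, was bright on all 6 arrays, between 11.5 and 11.8. The transcripts of Ptprc (CD45, on all leukocytes), Cd3e (T cells), Pdgfra and Col1a2 (fibroblasts) and Cpa3 (mast cells) had means below 4.40, in both populations. Other defining markers were above it in both: Csf1r and Cd68 (macrophages) had means of 5.98 and 5.55 in double-positive cells against 6.03 and 5.47, Cd79a (B cells) 5.45 against 5.44, Col3a1 (fibroblasts) 5.08 against 5.74, and Acta2 (smooth muscle) 7.34 against 6.82. S100a8 (neutrophils) had means of 4.23 and 6.15. The part of other cell types in the results was not tested. In sorted pools, fewer cells of a type and less RNA per cell cannot be told apart.

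**Figure D2:**
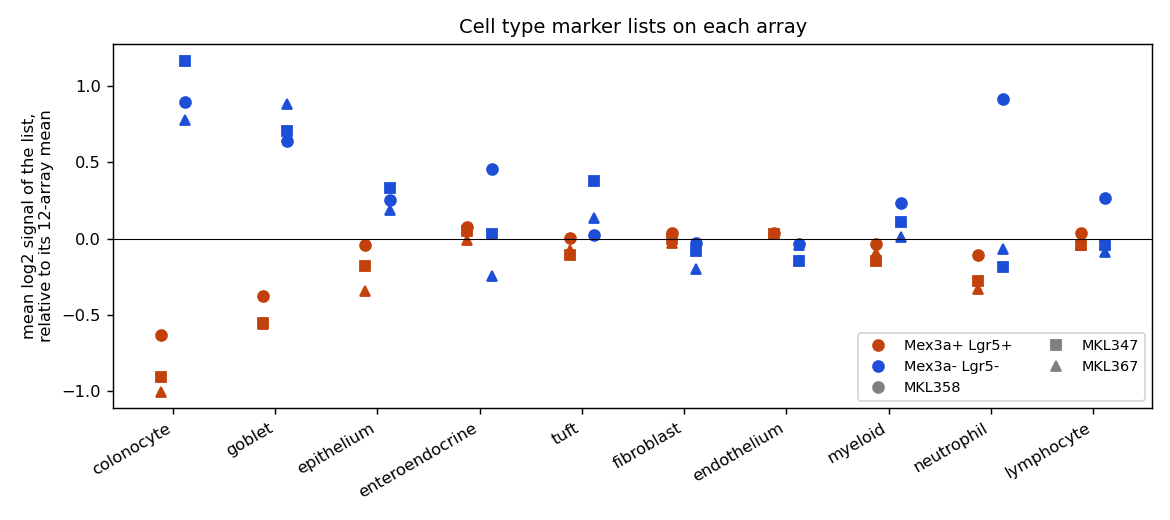
Each point is the mean log2 signal of a list of cell type markers on 1 array, relative to the list's mean over the 12 arrays, with double-positive arrays in orange and double-negative arrays in blue. The colonocyte and goblet lists part the populations by the widest gaps. The epithelium, tuft, fibroblast, endothelium and myeloid lists also do not overlap, by smaller gaps. The neutrophil list is high on the double-negative array of MKL358 (0.91).

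The 14 largest rises among called genes that moved 1 way in every mouse ran from Pnliprp1 (log2 difference 3.09) to Rbms3 (2.31). They were chosen by size, so their differences describe them and are no further evidence. Pnliprp1 and Pnliprp2 encode lipase-related proteins of the exocrine pancreas. Pnliprp1 read 8.24, 9.27 and 9.48 in double-positive cells and 5.16, 4.9 and 7.65 in double-negative cells, an 8.52-fold difference (SE 0.36 on the log2 scale, limma adjusted p = 4.21e-05). Pnliprp2 was brighter, at 9.72, 10.29 and 10.64 against 6.85, 6.81 and 8.46, and rose 7.17-fold. In both genes the groups were apart, and the double-negative array of MKL367 stood nearest to the double-positive arrays. Alb, the serum albumin made by hepatocytes, read 8.97, 9.44 and 8.20 against 6.0, 5.74 and 7.27, and was 5.78-fold higher. These 3 were the only rises in a list of liver and pancreas genes, in which 17 genes were tested, 2 fell and 12 did not pass. The share called was 29.4%, against 33% over all genes. The falls were those of the thyroxine carrier Ttr (-0.84), not called without MKL367 (limma adjusted p = 0.077), and the trypsin inhibitor Spink1 (-0.77), not called without the block (0.36) or MKL358 (0.0647). The list's median was 0.03, and the pancreatic elastase Cela3b (0.20), trypsinogen Prss1 (0.07) and fetal serum protein Afp (0.19) did not pass.

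Vim, the intermediate filament vimentin of mesenchymal cells, was the brightest of the 14. It read 10.34, 11.33 and 11.05 in double-positive cells and 7.56, 8.32 and 8.94 in double-negative cells. That gap was 6.19-fold (log2 2.63, SE 0.14, limma adjusted p = 1.87e-07), and the other 2 probe sets of Vim gave 2.59 and 2.66. Ltbp1, which binds latent TGF-beta in the matrix, stood at 6.68, 7.56 and 7.49 against 4.60, 4.17 and 4.94 and rose 6.39-fold, while its other 2 probe sets, which had means below the test level of 4.40, differed by 0.03 and 0.05. Adam12, a metalloprotease, rose 5.62-fold, from a mean log2 signal of 6.04 to 8.53. Cdh13, a cadherin without a cytoplasmic tail, rose 5.18-fold, and Npnt, the integrin ligand nephronectin, 5.10-fold. The probe sets of Npnt differed widely, from 0.17 to 2.35.

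Apcdd1, a membrane inhibitor of Wnt signalling, read 9.54, 9.40 and 9.99 in double-positive cells against 6.60, 6.87 and 8.15, a 5.42-fold rise (SE 0.19 on the log2 scale, limma adjusted p = 2.47e-06). Vwa2, a matrix protein with von Willebrand domains, read 8.49, 8.51 and 8.82 against 6.24, 6.0 and 6.55 and rose 5.07-fold. The remaining large rises were in Tubb4a, a beta tubulin best known from neurons (5.17-fold), Slc19a3, a thiamine transporter (4.97-fold), and Rbms3, an RNA-binding protein (4.95-fold). The other probe sets of Rbms3 differed by 0.43, 1.56 and 0.76, and that of Slc19a3, below the test level, by 1.01. Lgr5, the sorted marker described earlier (2.36), is the other of the 14. All 14 had double-positive arrays apart from the double-negative ones, and all 14 remained called without the mouse as a block. Their choice by size among called genes made both likely, and over all genes tested 32.6% had groups apart. In all 14, the double-negative array of MKL367 was the highest of its 3, and in 11 the difference was smallest in that mouse.

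The 14 largest falls were deeper than the rises, from 43.0-fold to 12.6-fold. Zg16, a lectin that goblet cells pack with mucus, read 4.70, 4.58 and 7.72 in double-positive cells against 11.08, 10.76 and 11.44 (log2 difference -5.43, SE 0.42, limma adjusted p = 2.59e-06). The double-positive array of MKL367 was well above the other 2, and still far below every double-negative array. Gsdmc2, a gasdermin of the colon epithelium, read 3.15, 3.05 and 3.71 against 8.44, 8.86 and 8.69, a 41.0-fold difference whose low side lay below the test level of 4.40. Krt20, the keratin of differentiated intestinal cells, stood at 6.74, 5.36 and 4.78 against 10.71, 10.72 and 9.87, and fell by 4.80 on the log2 scale. Slc26a3, the chloride-bicarbonate exchanger of the colon surface, read 4.24, 4.57 and 4.59 against 8.72, 9.76 and 8.79 (24.6-fold, limma adjusted p = 8.59e-08). The double-positive arrays of Slc26a3 were tightly grouped around the test level, and its other probe set, with a mean below that level, differed by -1.39.

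Car1, the colonic carbonic anhydrase, read 6.20, 5.41 and 5.56 in double-positive cells against 10.21, 10.30 and 10.26, a 23.2-fold fall (SE 0.22 on the log2 scale, limma adjusted p = 1.08e-07). Muc3, a mucin of the brush border membrane, fell 19.8-fold, Aqp4, a water channel, 17.0-fold, and Clca4a, a chloride channel accessory protein, 17.5-fold. Fabp2, which carries fatty acids in enterocytes, read 4.33, 3.91 and 4.55 against 8.38, 8.25 and 7.13. Cyp2d34, a cytochrome P450, read 3.28, 3.50 and 3.50 against 6.77, 7.50 and 6.97, so its low side too was below the test level. The 4 other large falls were defence genes, described further on. All 14 had groups that did not overlap, and the largest limma adjusted p among them was 0.0034 (Saa2). The choice of these falls by size among called genes made both likely, and over all genes tested 32.6% had groups apart. In 12 of the 14 the difference was largest in MKL347.

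**Figure D3:**
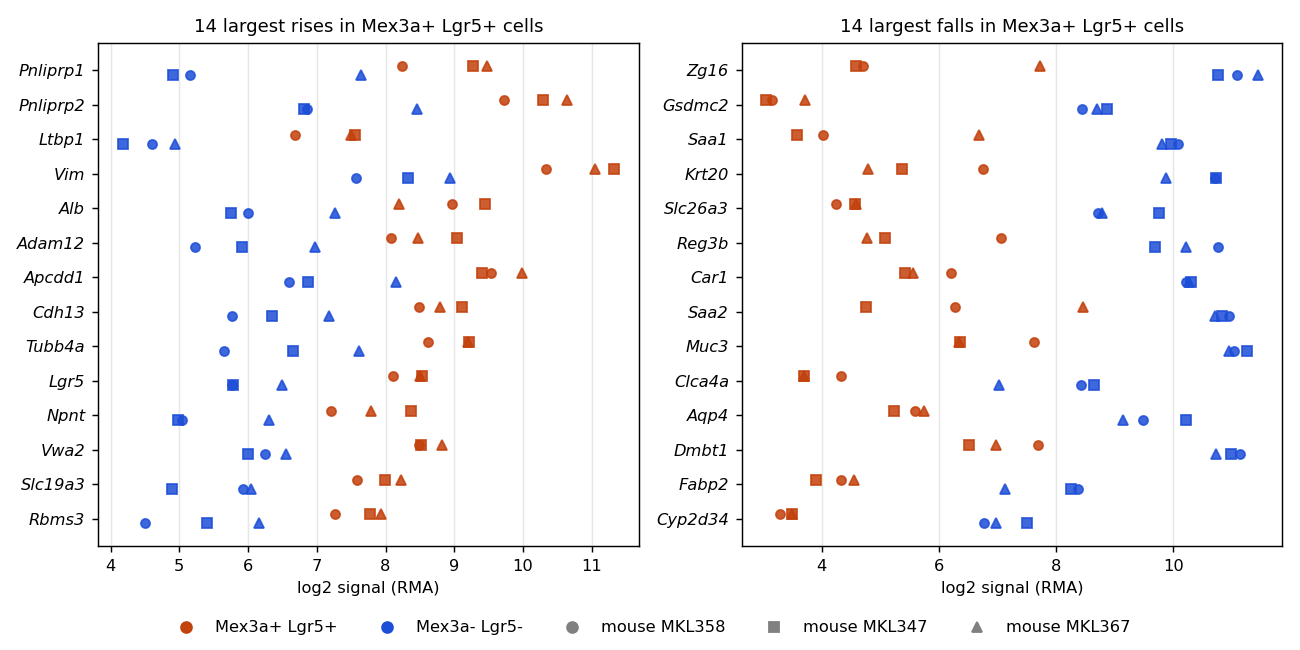
The log2 signal of the 14 largest rises (left) and 14 largest falls (right) is shown on each double-positive array (orange) and double-negative array (blue), with 1 marker shape per mouse. In every gene the orange and blue points do not overlap, and the blue triangle of MKL367 is the rightmost blue point of all 14 rises.

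Promoter sequence was at hand for 18 of 29 genes, the 28 above and Mex3a. RefSeq windows of 300 bases, 250 before the start site and 50 after it (GRCm38.p6), were searched on both strands for CTTTGA, a core of the Tcf/Lef site, and for TTTATTG and TTTATGG, forms of the Cdx site. These motifs do not overlap one another in the windows printed. Of the 18 genes at least 7 held a motif: Fabp2, Slc26a3, Muc3 and Reg3b, which fell, and Pnliprp2, Rbms3 and Slc19a3, which rose. Not every window of the 18 genes entered this count, so it is a minimum. The windows of 3 are printed as examples: Fabp2 held both kinds of motif, Slc26a3 is another gene that fell, and Pnliprp2 had the largest rise of the 7. Capitals mark the motif, with TCAAAG being CTTTGA on the opposite strand.
Fabp2, chr3:122894822-122895121, plus strand: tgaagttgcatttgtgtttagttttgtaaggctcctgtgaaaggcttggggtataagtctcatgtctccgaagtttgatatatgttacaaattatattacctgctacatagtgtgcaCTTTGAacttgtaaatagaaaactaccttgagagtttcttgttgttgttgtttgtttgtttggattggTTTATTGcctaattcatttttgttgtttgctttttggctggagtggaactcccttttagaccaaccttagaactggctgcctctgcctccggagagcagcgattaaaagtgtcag
Slc26a3, chr12:31437969-31438268, plus strand: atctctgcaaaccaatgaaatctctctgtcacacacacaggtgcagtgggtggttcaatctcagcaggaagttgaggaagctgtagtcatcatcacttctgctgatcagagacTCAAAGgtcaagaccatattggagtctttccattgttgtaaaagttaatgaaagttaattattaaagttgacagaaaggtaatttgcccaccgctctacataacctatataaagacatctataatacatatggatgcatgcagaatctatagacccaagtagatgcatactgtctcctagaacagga
Pnliprp2, chr19:58759473-58759772, plus strand: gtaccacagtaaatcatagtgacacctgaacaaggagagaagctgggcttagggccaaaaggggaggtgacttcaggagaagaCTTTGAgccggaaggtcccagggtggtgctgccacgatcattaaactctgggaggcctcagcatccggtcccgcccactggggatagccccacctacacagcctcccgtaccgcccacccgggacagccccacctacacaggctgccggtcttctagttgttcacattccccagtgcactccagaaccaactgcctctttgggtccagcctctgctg
Fabp2 held CTTTGA from base -133 and TTTATTG from base -65, counted from the start site. CTTTGA was in 15.1% of 238 windows of the at least 2-fold rises and 15.2% of 400 windows of the at least 2-fold falls, against 12.3% of 12873 windows of all tested genes. TTTATTG was in 2.52%, 3.25% and 2.61% of the same 3 sets. TTTATGG was in 0.42% of the windows of rises (1 window), 4.5% of those of falls (18 windows) and 1.9% of those of all tested genes. A match is a description of these letters and not a site.

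Absorptive colonocyte genes were low in double-positive cells almost throughout. Of 35 tested genes of the colonocyte list, 31 fell, 2 rose and 2 did not pass, and the median difference was -1.87, against -0.01 over all genes. The median was negative in every mouse, at -1.46, -1.88 and -1.95. Cdhr5, a protocadherin that links microvilli, read 7.80, 7.55 and 7.31 in double-positive cells against 10.10, 10.16 and 9.76, a log2 difference of -2.45 (SE 0.09, limma adjusted p = 1.85e-08). Ceacam20, a brush border adhesion molecule, read 4.53, 4.59 and 4.65 against 7.99, 8.61 and 7.68. The gap was nearly the same in the 3 mice for Cdhr5 (-2.29, -2.61 and -2.45), while that of Ceacam20 ran from -3.03 to -4.02, and the groups were apart in both. The actin bundler Vil1 fell by 1.23 and the carbonic anhydrase Car2 by 1.87. The rises were small: the sodium-hydrogen exchanger Slc9a3 (0.42) and the sodium channel subunit Scnn1b (0.54). Slc9a3 overlapped between groups and lost its call without the block (limma adjusted p = 0.59), without MKL358 (0.0626) and without MKL347 (0.126), and Scnn1b lost its call without MKL347 (0.192) or MKL367 (0.152).

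Goblet cell genes were low too. Of 28 tested, 22 fell, 2 rose and 4 did not pass, with a median of -1.06. Kcnk6, a potassium channel, read 6.19, 6.14 and 5.42 in double-positive cells against 7.96, 8.16 and 7.94 (log2 difference -2.11, limma adjusted p = 1.14e-06). Fam3b, a secreted cytokine-like protein, fell by 2.81. The factors that set the secretory fate fell 2.12-fold (Atoh1) and 2.21-fold (Spdef). Clca1, a mucus-processing protease, varied widely between mice, at 3.96, 3.48 and 6.19 against 8.01, 6.92 and 9.47, and was 12-fold lower. Tff3, a trefoil peptide of mucus, kept a high signal in double-positive cells, at 11.02, 10.17 and 10.74, and fell 1.87-fold. The phosphatase Dusp4 (0.76) and the forkhead factor Foxa3 (0.33) rose, and Foxa3 lost its call without the block (limma adjusted p = 0.168), without MKL358 (0.115) and without MKL347 (0.215).

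Transcription factors that give intestinal cells their identity were lower as well. Of 20 tested, 12 fell, 2 rose and 6 did not pass, and the median was -0.43. Cdx1 and Cdx2, the caudal homeobox factors, read 8.74, 7.86 and 7.70 against 9.60, 9.64 and 9.23 (Cdx1, 2.62-fold lower) and 7.06, 7.25 and 6.86 against 8.15, 8.92 and 7.93 (Cdx2, 2.42-fold lower). Both groups of arrays were apart in each gene. The bile acid receptor Nr1h4 fell by 1.34 (limma adjusted p = 9.07e-06) and the lipid sensor Pparg by 1.33 (1.35e-05). Hnf4a, the nuclear receptor of intestinal and liver epithelium, fell by 0.69. The rises of Grhl2 (0.34) and Foxa1 (0.32) were lost without the block (limma adjusted p = 0.0879 and 0.364) and without MKL347 (0.114 and 0.0823), that of Foxa1 also without MKL358 (0.109) or MKL367 (0.0542). Among 25 general epithelial markers 17 fell and 3 rose, with a median of -0.33. Without the block 14 fell and none rose. Epcam itself differed by -0.11 and did not pass (limma adjusted p = 0.0778).

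Mucosal defence genes made up 4 of the 14 largest falls. Saa1 and Saa2 are acute-phase serum amyloids that the gut epithelium also makes. Saa1 read 4.03, 3.57 and 6.69 in double-positive cells against 10.08, 9.96 and 9.81 (36.5-fold, SE 0.85 on the log2 scale, limma adjusted p = 0.0005), with 2 of its 3 low values below the test level. Saa2 read 6.27, 4.75 and 8.45 against 10.96, 10.82 and 10.70, with the larger error of 0.93, and a dimmer probe set of it differed by only -0.41. As for Zg16, the double-positive array of MKL367 was the highest of its group in both. Their sequences are close, and the probe set used for Saa2 carries the suffix for probes shared between transcripts, so their signals may not be separate. The C-type lectin Reg3b read 7.07, 5.09 and 4.77 against 10.77, 9.68 and 10.22, and the scavenger receptor Dmbt1 7.69, 6.51 and 6.97 against 11.14, 10.99 and 10.73. Of 21 tested defence genes 14 fell, 1 rose and 6 did not pass, with a median of -1.10.

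The single riser was Lcn2, a siderophore-binding protein, at 10.27, 10.93 and 10.45 against 8.47, 8.42 and 9.59, a 3.29-fold rise with no overlap. S100a8 and S100a9, which neutrophils hold in bulk, fell by 1.92 and 1.51, and without the block neither was called (limma adjusted p = 0.222 and 0.183). S100a8 reached 8.29 on the double-negative array of MKL358 and stayed at or below 5.28 on the other 5. Of 11 neutrophil genes tested, 4 fell and 1 rose, and over the 18 on the array the list's level ran from -0.33 to -0.11 in double-positive and from -0.18 to 0.91 in double-negative cells. The part of neutrophil RNA in the defence genes was not tested. Saa1 differed by -6.05 in MKL358, by -6.39 in MKL347 and by -3.12 in MKL367. Among 4 tested gasdermins, pore-forming proteins, Gsdmc2 and Gsdmc fell (-5.36 and -3.15), Gsdma rose (2.0, limma adjusted p = 4.86e-07) and Gsdme did not pass.

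Wnt target genes were mostly higher. Of 40 tested, 21 rose, 6 fell and 13 did not pass, with a median of 0.36 and medians by mouse of 0.56, 0.40 and 0.27. Lgr5, which was sorted on, is 1 of the 21. Prox1, a homeobox factor, read 10.26, 10.67 and 10.68 in double-positive cells against 8.12, 8.53 and 9.25 (3.74-fold, limma adjusted p = 4.85e-07). Wnt10a, a Wnt ligand, read 6.10, 6.09 and 7.22 against 4.05, 3.78 and 4.87, so that it crossed the test level of 4.40, and rose 4.72-fold. The groups did not overlap in either gene.

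Feedback inhibitors of the pathway were among the rises. Axin2, a scaffold of the complex that degrades beta-catenin, read 9.84, 9.73 and 10.02 against 8.79, 8.78 and 9.15, a 1.94-fold difference that was nearly the same in each mouse (SE 0.06 on the log2 scale, limma adjusted p = 9.89e-07). Notum, an enzyme that inactivates Wnt ligands, rose 3.39-fold, and Nkd1, which binds Dishevelled, 2.73-fold. The transcription factor Lef1 read 7.02, 7.68 and 7.67 against 4.42, 5.32 and 6.19 and rose 4.42-fold. Of the targets linked to growth, Myc differed by -0.24 and did not pass (limma adjusted p = 0.0728), and the cyclin Ccnd1 fell by 0.24 with overlapping arrays and no call without the block (limma adjusted p = 0.386), MKL347 (0.135) or MKL367 (0.208). The falls of the urokinase receptor Plaur (-0.88) and the BMP pseudoreceptor Bambi (-0.65) were lost without the block (limma adjusted p = 0.151 and 0.16). Of the 6 falls in the list, 1 was left without the block and 3 without MKL347 or without MKL367.

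Crypt base stem cell genes beside Lgr5 were divided. Of 28 tested, 15 rose, 7 fell and 6 did not pass, with a median of 0.24. Smoc2, a secreted matrix protein, read 9.20, 9.67 and 9.11 against 7.89, 7.90 and 7.89, a 2.70-fold rise (SE 0.11 on the log2 scale, limma adjusted p = 2.91e-06), and its double-negative arrays were almost equal. The ubiquitin ligases Znrf3 (1.17) and Rnf43 (0.96), which clear Wnt receptors from the membrane, also rose. Ascl2, the stem cell transcription factor, read 7.32, 7.03 and 7.19 against 7.03, 7.10 and 7.21 and did not pass. The 2 deepest falls in this list, Aqp4 (-4.09) and Clca4a (-4.13), are on it as stem cell markers of the small intestine and are surface genes in the colon. Aqp4 is on the colonocyte list as well, so its fall is counted in both lists. Next came the tetraspanin Tspan8 (-1.43).

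In the BMP and TGF-beta list, 11 of 36 genes rose, 4 fell and 21 did not pass, with a median of 0.13. The share called was 41.7%, against 33% over all genes. After Ltbp1 the smallest p was that of Tgif1, a repressor of Smad signalling, at 9.80, 10.02 and 9.85 against 9.05, 9.18 and 9.31 (log2 difference 0.71, limma adjusted p = 1.84e-05). The ligand Bmp7 rose by 1.57 and the procollagen protease Bmp1 by 1.65. Id1, a target of BMP signalling, fell by 0.49 and the ligand Bmp8b by 0.63. In the Notch list, 2 of 21 rose, the receptor Notch1 (0.72) and Hes6 (0.41), and 3 fell, Atoh1, Spdef and the ligand Jag1 (-0.31). The share called in it was 23.8%, below that over all genes. The arrays of Jag1 overlapped, and it was not called without the block (limma adjusted p = 0.136), MKL347 (0.463) or MKL367 (0.221). Hes1, the main Notch target of the crypt, differed by 0.22 and did not pass (limma adjusted p = 0.296).

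**Figure D4:**
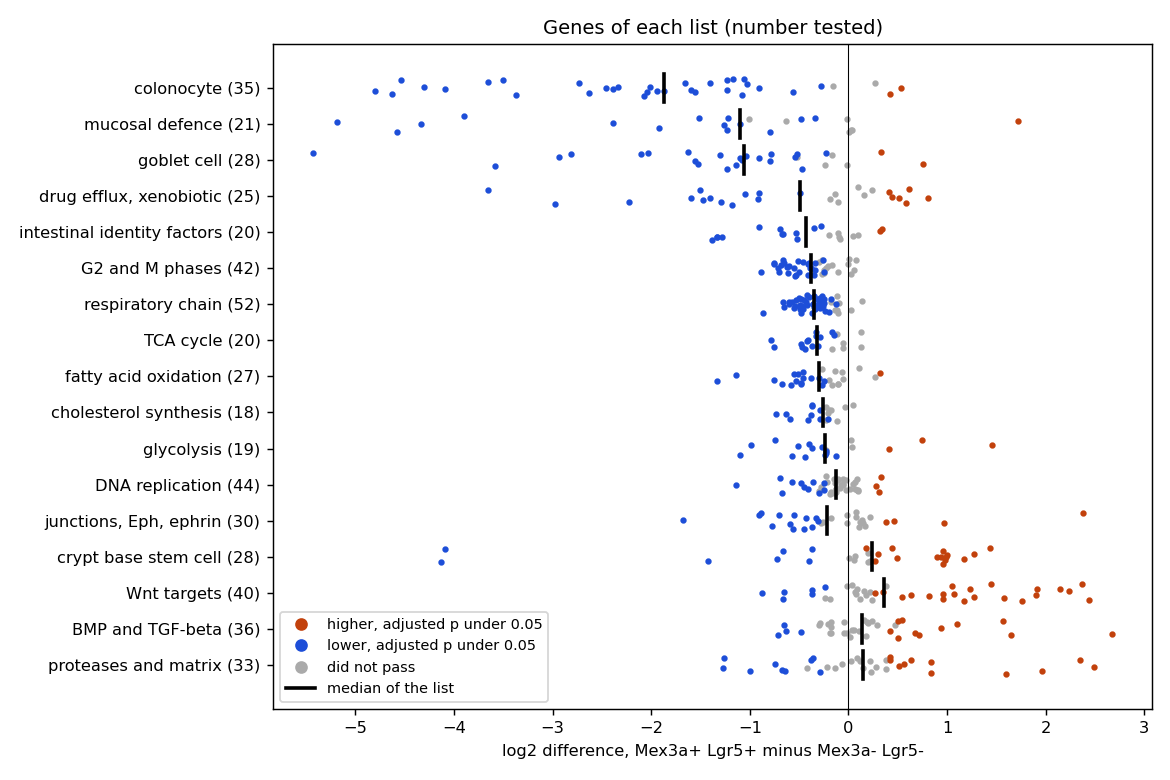
Each point is a tested gene of the list named at the left (number tested in brackets), placed by its log2 difference between double-positive and double-negative cells; orange points rose, blue points fell, grey points did not pass, and the black bar is the list's median. The colonocyte median lies at -1.87 and the Wnt target median at 0.36, and no respiratory chain or G2 and M phase gene is orange.

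Genes of mitosis and the G2 phase before it fell or did not pass. Of 42 tested, 27 fell and none rose, and the median was -0.38. Birc5, the chromosomal passenger survivin, read 8.04, 8.10 and 8.10 in double-positive cells against 8.73, 8.85 and 8.78 (1.63-fold lower, limma adjusted p = 9.53e-06). Cenpa, the centromeric histone, fell by 0.89, and Mki67, the antigen Ki-67, read 8.16, 8.53 and 8.38 against 8.70, 9.13 and 8.91 (1.47-fold lower). The groups did not overlap in any of these. The topoisomerase Top2a, often used with Mki67, differed by 0.03 and did not pass. The count of falls was 17 without the block, 16 without MKL347 and 16 without MKL367.

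DNA replication genes moved less. Of 44 tested, 11 fell, 3 rose and 30 did not pass, with a median of -0.13 that was 0.11 in MKL358 and negative in the other mice. The share called was 31.8%, near the 33% over all genes. E2f2, a driver of the S phase, fell by 1.14 and the thymidine kinase Tk1 by 0.69. The rises were those of Rfc2 (0.31), Rfc3 (0.28) and Pold3 (0.33), and each lost its call in several fits. Rfc2 lost it without the block, MKL358 or MKL347 (limma adjusted p = 0.275, 0.134 and 0.181), Rfc3 without MKL358 or MKL367 (0.093 and 0.0677), and Pold3 without the block, MKL347 or MKL367 (0.656, 0.0824 and 0.131). The count of falls ranged from 3 (without MKL347) to 19 (without MKL358), and it was 6 without MKL367 or without the block. Among cell cycle inhibitors, 6 of 22 rose and 6 fell, each 3 without the block. With the block 54.5% of them were called, against 33% over all genes. Plagl1, an imprinted zinc finger factor, read 9.06, 8.90 and 9.62 against 6.64, 6.73 and 8.02 (4.19-fold, limma adjusted p = 4.59e-07), and Cdkn1c, the imprinted inhibitor p57, 9.05, 10.13 and 9.77 against 7.36, 8.03 and 8.24 (3.42-fold). Both groups were apart in each. Cdkn1a, the p53 target p21, fell by 0.75, and Cdkn3, a phosphatase that peaks in dividing cells, by 1.19.

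Mitochondrial energy genes mostly fell, with small medians. Of 52 respiratory chain genes 44 fell, none rose and 8 did not pass, with a median of -0.35 and medians by mouse of -0.31, -0.34 and -0.40. Ndufa9 of complex I read 9.20, 9.25 and 9.12 against 9.77, 9.88 and 9.89 (1.58-fold lower, limma adjusted p = 1.25e-05). Cyc1, cytochrome c1 of complex III, read 9.70, 9.61 and 9.66 against 10.16, 10.29 and 10.23 (1.48-fold lower). Without the block 40 still fell. The TCA cycle had 14 falls among 20 genes (median -0.32), led by the succinyl-CoA ligase subunits Suclg1 (-0.79) and Suclg2 (-0.75), and this count was 8 without the block, 5 without MKL347, 8 without MKL367, and 9 without either array of the MKL347 pair.

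Fatty acid oxidation had 16 falls and 1 rise among 27 genes (median -0.30), with the thiolase Acat1 at -1.14, and 9 falls without MKL347, 10 without its double-positive array and 10 without MKL367. Cholesterol synthesis had 10 falls and no rise among 18 (median -0.26), with the isomerase Ebp at -0.59 and the epoxidase Sqle at -0.74, and 5 falls without the block and 3 without MKL347. In glycolysis 13 of 19 fell and 3 rose (median -0.24), and 8 fell without the block or without MKL367. The hexokinases Hk1 (-1.10) and Hk2 (-0.99) were lower, whereas the aldolase Aldoc read 8.20, 8.78 and 8.68 against 7.06, 6.80 and 7.43 and rose 2.75-fold. The lactate dehydrogenase Ldhb rose by 0.74, a call lost without the block (limma adjusted p = 0.088). Ribosomal proteins stood in contrast, with 2 falls and no rise among 46 (median -0.07).

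Genes that handle drugs and bile compounds were mostly low, with 13 falls and 6 rises among 25 tested (median -0.49). In all, 76% were called, against 33% over all genes. The rises were 2 without the block and 1 without MKL347. Sult1b1, a sulfotransferase, read 5.07, 5.0 and 5.30 against 8.26, 8.24 and 7.79 (7.85-fold lower, limma adjusted p = 5.93e-07). The efflux pump Abcg2 fell by 1.50, to means below the test level, and the glutathione transferase Mgst1 rose by 0.80. All 3 tested metallothioneins, which bind zinc and copper, rose. Mt3 read 9.80, 9.95 and 10.25 against 7.80, 7.01 and 8.43 (4.76-fold, limma adjusted p = 2.83e-06). Mt4 read 9.07, 9.07 and 10.34 against 6.89, 6.44 and 9.07, so its groups met at 9.07, and neither Mt4 nor Mt1 was called without the block (limma adjusted p = 0.0912 and 0.296), nor was Mt1 without MKL347 (0.317) or MKL367 (0.0899).

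Genes of the matrix, of proteases and of cell junctions moved in both directions. In the protease and matrix list 11 of 33 rose and 9 fell, with a median of 0.15 (4 fell without the block). The metalloprotease inhibitor Timp2 read 8.76, 9.22 and 9.14 against 7.36, 7.31 and 7.67 (3.02-fold higher, limma adjusted p = 1.69e-06), and the stromelysin Mmp11 rose 3.88-fold. The integrin subunits Itga2 (-1.27) and Itga3 (-0.74) fell. Among junction, cadherin, Eph and ephrin genes 13 of 30 fell and 4 rose, with a median of -0.22 (8 fell without the block). The ion-selective claudin Cldn15 fell by 1.67 and the liver-intestine cadherin Cdh17 by 0.59, while Cdh13 and the Eph receptor Ephb6 (0.97) rose. Semaphorins, plexins and related guidance genes had 7 rises and 9 falls among 27 (5 falls without MKL347), led by Sema6a (0.94) and Plxnb1 (1.28) upward and L1cam (-1.42) and Sema4g (-1.39) downward. The share called was 60.6% in the protease and matrix, 56.7% in the junction and 59.3% in the guidance list, against 33% over all genes. Over all genes 13.9% rose and 19.1% fell.

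The rise of Vim was set beside other mesenchymal genes. In a list for the epithelial-to-mesenchymal transition 5 of 12 tested genes rose and 3 fell, with a median of 0.18. That median was 0.31 in MKL358, -0.09 in MKL347 and 0.15 in MKL367. In this list 66.7% were called, against 33% over all genes. The rises were 3 without the block and 3 without MKL358 or MKL347. The transition factors Zeb1, Zeb2, Snai1, Snai2 and Twist1 and N-cadherin (Cdh2) were on the array but missed the filter and were not tested. The membrane protease Mmp14 rose by 0.56, E-cadherin (Cdh1) fell by 0.45, a call lost without the block (limma adjusted p = 0.0594), and the transition factor Twist2 differed by 0.05. Of 15 fibroblast markers 5 rose and none fell (median 0.10), and 3 rose without the block. The share called was 33.3%, near the 33% over all genes. The list's level ran from -0.03 to 0.04 in double-positive and from -0.20 to -0.03 in double-negative cells. The risers included the matrix proteins Fbln1 (0.69) and Thbs2 (0.89). The defining collagen Col1a1 read 6.45, 6.52 and 6.23 against 6.50, 6.40 and 6.22, and the proteoglycan Dcn 4.85, 4.81 and 4.81 against 4.88, 4.78 and 4.76, so both were level between the populations on these arrays. Col3a1 reached 6.86 on the double-negative array of MKL347 and lay between 4.70 and 5.60 on the other 5.

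Of 31 interferon-induced genes tested, 5 rose and 11 fell (median -0.17). The share called was 51.6%, against 33% over all genes, of which 13.9% rose and 19.1% fell. The RNA sensor Ddx58 (RIG-I) rose by 1.11, and the deconjugase Usp18 by 1.14. Oasl2 read 4.73, 5.05 and 4.88 against 6.05, 7.70 and 6.80 (3.90-fold lower, limma adjusted p = 1.25e-05). Without the block 1 rose and 7 fell, and neither Usp18 nor Oas1g (-0.73) was called (limma adjusted p = 0.187 and 0.0556). Without MKL347 or MKL367 3 rose. Fetal and injury-type epithelial markers had 6 rises and 8 falls among 21 (3 rises without MKL347), with 66.7% called. The Yap target Ccn1 rose by 1.46, whereas the receptor antagonist Il1rn (-1.63) and the annexin Anxa1 (-1.58) fell. The oncofetal factor Hmga2 rose by 0.88, with overlapping arrays and no call without the block (limma adjusted p = 0.163).

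Immediate early genes, which respond to growth signals and to stress, including that of cell dissociation, had 10 rises and 5 falls among 29. Of the 29, 51.7% were called, against 33% over all genes. Without the block 4 rose and 3 fell, and 2 fell without MKL347 or without MKL367. Jun read 9.64, 9.96 and 10.02 against 8.67, 8.80 and 9.02, and Atf3 11.08, 10.89 and 10.94 against 10.01, 9.39 and 9.48, with no overlap in either. Fos was called lower (-0.29), but its groups overlapped, it differed by -0.04 in MKL358, and it was not called without the block (limma adjusted p = 0.547), MKL347 (0.295) or MKL367 (0.156). Dissociation time is not in the labels, and its part in these genes was not tested.

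Further lists held markers of rarer epithelial cells and of other cell types. The share of genes called was 41.7% in the tuft list, 31.2% in the enteroendocrine, 26.7% in the myeloid, 15.8% in the endothelial and 7.69% in the lymphocyte list, against 33% over all genes. Among 16 enteroendocrine genes the hormone carrier Chgb read 6.05, 5.31 and 5.24 against 7.98, 8.27 and 5.11, so the double-negative array of MKL367 was the lowest of the 6; its fall of 1.59 was not called without the block (limma adjusted p = 0.135), MKL358 (0.13) or MKL347 (0.313). Altogether 3 of these genes rose and 2 fell. Among 12 tuft cell genes 2 rose and 3 fell. The tuft kinase Dclk1 read 4.51, 4.30 and 3.96 against 4.68, 7.22 and 5.82 (3.14-fold lower), with 2 of the 3 low values below the test level, and was not called without MKL347 (limma adjusted p = 0.0502) or MKL367 (0.054). Of 19 endothelial genes 3 rose and none fell, led by Flt1, a VEGF receptor (1.31, SE 0.21), while the endothelial cadherin Cdh5 differed by 0.15 and did not pass. Of 15 myeloid genes 4 fell and none rose, among them the lipopolysaccharide co-receptor Cd14 (-1.34), which the levels 5.20, 5.25 and 5.16 against 6.86, 6.38 and 6.39 describe. Of 13 lymphocyte genes 1 fell, Cd52 (-0.75), which was not called without the block, MKL358 or MKL347 (limma adjusted p = 0.0622, 0.072 and 0.0818).

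Double-positive and double-negative cells differ in 2 markers at once, so the comparison cannot assign a gene to either. The populations with only 1 marker supply arrays whose values do not enter that difference. They do share its fit, with the error estimate, the mouse effects, the filter and the choice of probe set. The calls of both comparisons are therefore not independent, and genes with small errors are favoured in both. Mex3a+ Lgr5- cells minus Mex3a- Lgr5+ cells gave 2728 called genes (21.7%), of which 846 were higher (6.72%) and 1882 lower (14.9%). The share of lower calls, 69.0%, was 53.3% after a further quantile normalization, and the count was 692 without the block, 1509 without MKL347, 1333 without MKL367 and 1840 without MKL358. Of the 246 genes that rose at least 2-fold in double-positive cells, 206 (83.7%) were called higher in the cells with Mex3a alone, 4 (1.63%) were called higher in the cells with Lgr5 alone, and 36 were not called. Of the 390 that fell at least 2-fold, 342 (87.7%) were called lower in the cells with Mex3a alone, 0 in the cells with Lgr5 alone, and 48 were not called. The median difference between the cells with Mex3a alone and those with Lgr5 alone was 0.86 over the 246 and -0.90 over the 390, against -0.03 over all genes. All 28 of the largest rises and falls were called in this comparison. The Mex3a- Lgr5+ array of MKL367 stood apart in fibroblast markers: Col1a1 read 8.70 and Col3a1 9.34 on it, and the list's level was 0.60, against at most 0.04 on the other 11 arrays. Without that array, a fit chosen after the data were seen, 1825 genes were called, 558 higher and 1267 lower. Of the 246 rises 183 (74.4%) were then called higher with Mex3a alone and 3 (Lgr5, Prkd1 and Vwa2) with Lgr5 alone, and of the 390 falls 309 (79.2%) were called lower with Mex3a alone and 1 (Chgb) with Lgr5 alone. All of the 28 but Saa2 (limma adjusted p = 0.0656) were called in that fit.

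The 4 genes on the Lgr5 side were Lgr5 itself, Vwa2, Prkd1 and Cxcl13. Vwa2 read 7.71, 7.16 and 7.98 with Mex3a alone and 8.57, 8.38 and 8.34 with Lgr5 alone, a log2 difference of -0.81 (SE 0.14, limma adjusted p = 0.00149), and these groups did not overlap. Lgr5 read 7.03, 7.33 and 7.49 against 8.05, 8.06 and 7.95, so the cells with Mex3a alone were still well above the double-negative mean of 6.01. Prkd1, a protein kinase D, differed by -0.79 and the chemokine Cxcl13 by -0.86. Cxcl13 rose 2.04-fold in double-positive cells, with overlapping arrays and no call without the block (limma adjusted p = 0.099). Vim and Apcdd1 lay on the other side: Apcdd1 read 9.59, 9.72 and 10.03 with Mex3a alone and 6.88, 7.47 and 7.77 with Lgr5 alone, a difference of 2.41 beside 2.44 between double-positive and double-negative cells.

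Car1 had mean log2 signals of 5.72 in double-positive cells, 7.69 with Mex3a alone, 9.60 with Lgr5 alone and 10.26 in double-negative cells. Slc26a3 had means of 4.47, 4.71, 7.84 and 9.09 in the same order. Smoc2 differed by -0.29 between the single-positive populations and was not called there (limma adjusted p = 0.098). The largest called rises on the Mex3a side were Mt4 (2.49) and Apcdd1, then Gstm7, Pnliprp1 (2.21) and Alb (2.19), and the largest falls were Zg16 (-4.96), Gsdmc2 (-4.48), Saa1 (-3.63), Saa2 (-3.37) and Aqp4 (-3.28).

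**Figure D5:**
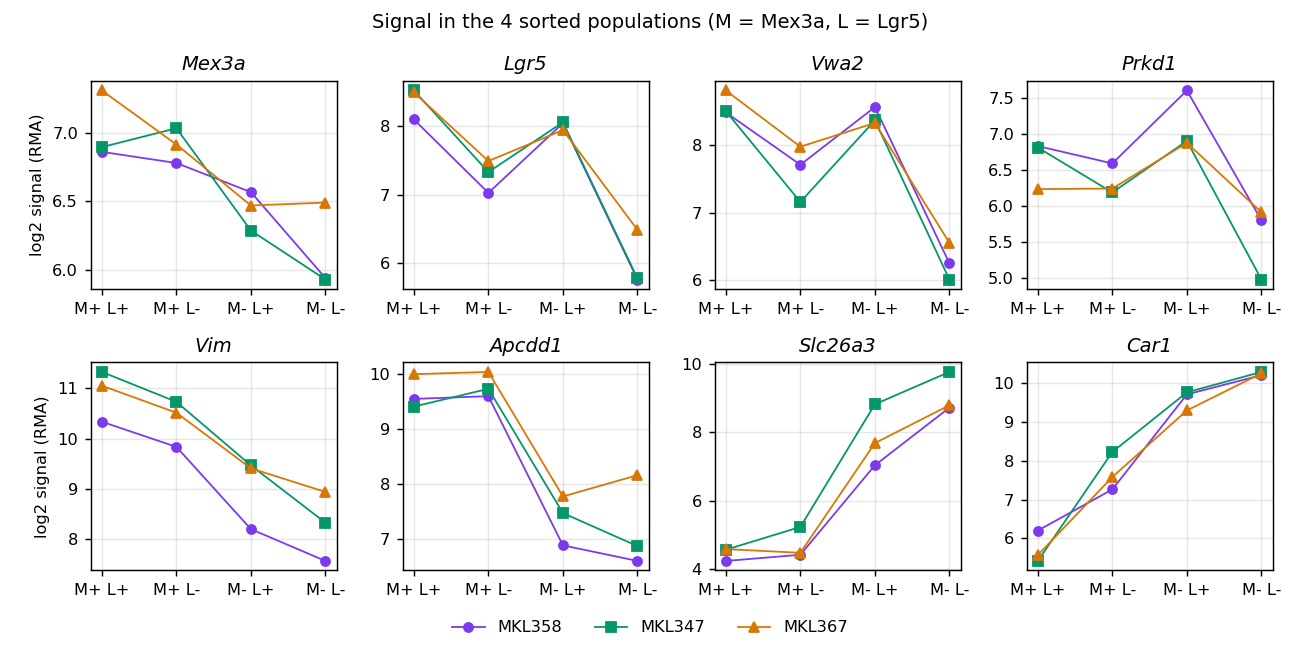
The log2 signal (RMA) of 8 genes is plotted for the 4 sorted populations, with M for Mex3a and L for Lgr5 and 1 line per mouse. Vwa2 and Lgr5 are higher with Lgr5 alone than with Mex3a alone in every mouse, and Apcdd1, Vim, Slc26a3 and Car1 set both Mex3a+ populations apart from both Mex3a- populations.

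Whether the difference made by 1 marker depended on the other was tested as an interaction over the 12 arrays. No gene passed (limma), 1078 had an unadjusted p under 0.05, and 359 had one without the block. Leaving out 1 array or mouse gave 0 to 3 calls: Saa1 without MKL367, Selenop without the double-positive array of MKL347, Sprr2d and Sycn without the double-negative array of MKL347, and Ggh, Prox1 and Rnf157 without the double-negative array of MKL367. Without the Mex3a- Lgr5+ array of MKL367, Ggh and Vwa2 were called. The interaction of Lgr5 was -0.92 (limma adjusted p = 0.351) and that of Vwa2 -1.17 (0.131, and 0.0329 without that array), both in the direction of a smaller gap in double-positive cells than the sum of the single steps. A p that misses the threshold does not show that the steps add up.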

How the data were processed

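The deposited values are log2 signals of 45141 probe sets on 12 arrays; the submitters' processing notes name RMA, and its software is not given in the sources used here. The values went into the fit without further normalization, and the number of arrays limits the precision. By the platform table, 28898 probe sets have exactly 1 gene symbol, and the brightest probe set of each symbol was kept. Genes above the 40th percentile of all values (4.40) on at least 3 arrays were tested, which left 12595.

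Genes were fitted with limma 3.58.1 in R 4.3.3 (4 population means over all 12 arrays, mouse as a block, intensity trend, 2-sided tests, Benjamini-Hochberg adjustment over all genes). Adjusted p-values are limma's and errors are its standard errors (SE). The mouse number in the titles gave the pairing: with population means removed, arrays of 1 mouse correlated at 0.349 to 0.694 in 18 pairs, and those between mice lay between -0.691 and 0.152 in 48 pairs. Removing a mean over 3 arrays by itself lowers the correlations between mice, so their range is no separate support for the pairing. In simulated data with 200 changed genes among 12595, the fit for this comparison found 53.7% of those changed by 0.5 (log2), 91% of those changed by 1 and all (100%) of those changed by 2, and made 12 false calls. The simulated noise was independent between genes. The real data had 4161 calls, far more than the 200 genes changed here, so these rates do not carry over to them.

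Named genes were Mex3a, Lgr5, the 14 largest rises and 14 largest falls with 1 sign in 3 mice (clone and gene-model symbols left out), the members of each list with the smallest p in each direction, and up to 5 per direction of the other comparisons; further list members were named by what they do. Of 1222 list genes 1100 were on the array and 935 were tested. Lists were described by counts and medians, with no set test. The counts of each list are to be read beside those over all genes tested, of which 13.9% rose and 19.1% fell. The members, the 42 lists and the tests were chosen with earlier results of these data known. Alternatives were other filters, scalings and probe set rules, a fit without the block, a fit on 6 arrays, no trend, weights per array, and the omission of every mouse and of every double-positive or double-negative array in turn. The omission of 1 Mex3a- Lgr5+ array was chosen after seeing the data. Python 3.11.15 and matplotlib 3.10.9 drew the figures.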

Additional observations from a re-analysis of the deposited data

Results flagged for a closer look

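The 131 genes named by rule (the sorted markers and those picked by size or p) were scanned for opposite signs. A gene was kept if the difference by 1 marker had opposite signs with and without the other marker in all 3 mice. Nr1h4 and Klf4 were kept, so their opposite signs are how they were picked and are no evidence. Lgr5 status made a difference of 0.23 to Nr1h4, the bile acid receptor, in Mex3a+ cells and of -0.52 in Mex3a- cells, with opposite signs in all 3 mice. The gap between these differences was 0.748, and the interaction test did not call it (limma adjusted p = 0.351). For Klf4, a factor of differentiated epithelium, the same differences were 0.26 and -0.27, again opposite in every mouse, with a gap of 0.531 that was not called either (limma adjusted p = 0.383).

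Probe sets with no symbol or several symbols were not used for the gene results. Of 8482 such probe sets above the test level, limma called 2255 (26.6%) between double-positive and double-negative cells, 1334 higher and 921 lower.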

How the results depend on the processing

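The count of genes called between double-positive and double-negative cells was 4161, and it was 2399 without the mouse as a block and 6411 when every probe set was tested on its own, where 19883 probe sets were tested. Leaving out a mouse or an array gave 2483 to 4006 calls. The other alternatives gave 3138 to 4234. The comparison of the single-positive populations gave 2728 calls with the block and 692 without it; leaving out a mouse or an array gave 1333 to 2990, and the other alternatives 2313 to 3980. The interaction gave 0 calls with and without the block and 0 to 3 when a mouse or an array was left out. None of the 131 genes named by rule changed direction under any alternative. Of these, 25 lost their call without the block, and 11, 9 and 7 without mouse MKL347, MKL358 or MKL367. The number was 8 without the double-positive array of MKL347, 7 without the double-negative array of MKL358, and at most 6 under each other alternative. Genes named otherwise are outside these counts, and of them Fos, Ccnd1, Rfc2, Jag1, Mt1 and Cxcl13 also lost their call without the block. The cause was not tested. Genes near the test level of 4.40 have signals close to background, which bounds their fold changes. Among them are Zg16, Gsdmc2, Cyp2d34, Clca4a, Clca1, Ceacam20, Fabp2, Saa1, Wnt10a, Dclk1, Abcg2, Ltbp1 and Slc26a3.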
